A study of Rattus norvegicus with 9 samples.

Results

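Adipose-derived stromal cells (ADSCs) were compared after continued culture and at the start of that culture, across all expressed genes. The comparison took 6 of the 9 libraries of the study, chosen by their labels: 3 Vitro-ADSCs libraries against 3 Con-ADSCs libraries. The Vitro cells were passage 4 ADSCs that went on growing and being passaged in an incubator until the day on which the Vivo group was harvested. The Con cells were ADSCs at passage 4. The 3 Vivo-ADSCs libraries held passage 4 cells re-isolated from the fat of nude mice 7 days after injection, and are used here only for levels given beside the comparison. All cells were primary, from the inguinal fat of GFP-transgenic rats, released with type 2 collagenase and kept in DMEM/F12 medium containing 10% fetal bovine serum. The labels give neither the number of passages that Vitro cells added nor the age, sex or number of the rats. Whether replicate libraries stem from different rats or different dishes is not stated either, so a p-value here reflects only how much these libraries varied, and that variation may be technical.

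ADSCs are fibroblast-like cells that attach to plastic and can be driven towards fat, bone and cartilage fates. During serial passage such cells keep dividing for a time under serum, and cultures then slow as CDK inhibitors of the p16 and p21 type build up and secreted inflammatory factors increase. Genes of DNA replication are known targets of E2F factors and genes of mitosis of the DREAM and MuvB complexes, so both sets move with the share of cycling cells. Immediate early genes are switched on within minutes by serum, stress or stretch through factors that include SRF. In bulk RNA, fewer cells of a type and less RNA per cell cannot be told apart.

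Total counts were 17705061 to 18355242 in the 6 libraries, so depth was nearly equal, and 3 counts, the most that a count of 0 allows, are 0.163 to 0.169 CPM (counts scaled to an equal library total) before TMM scaling. Such limits cover counting error only. The filter on low counts left 12364 of 21923 genes for testing. Each level is a TMM-scaled CPM, given for replicates 1, 2 and 3 in that order. Log2 fold changes are Vitro minus Con with SE. They were tested with the quasi-likelihood method of edgeR in a fit to all 9 libraries, and p was adjusted by Benjamini-Hochberg over all tested genes. Stromal markers were present: Thy1 (CD90) stood at 1149, 1044 and 1019 CPM in Vitro and 884, 976 and 923 CPM in Con, and the integrin gene Itgb1 at 2457, 2073 and 2295 CPM in Vitro and 2382, 2270.1 and 2455 CPM in Con. Other stromal surface markers are given below. So are pericyte, mesothelial and Schwann cell markers, which summed to more than the lists described next. Leukocyte markers summed to 22.7 to 27.7 CPM in Vitro and 22.1 to 25.9 CPM in Con, most of it Cd14, and 5 of 17 (Adgre1, Cd3e, Cd3g, Ms4a1 and Tyrobp) were at 0 throughout. Epithelial markers summed to 0.0582 to 0.425 CPM in Vitro and 0.453 to 4.55 CPM in Con: 8 of 9 had a count in at least 1 of the 6 libraries, Grhl2 was at 0, and E-cadherin (Cdh1) had 0 counts in each Vitro library against 41, 4 and 6 in Con, at least 17.6-fold lower if the 3 Vitro libraries together are set at 3 counts. The endothelial cadherin gene Cdh5 likewise had 0 counts in each Vitro library and 12, 0 and 12 in Con, although the endothelial list as a whole summed to 32.7 to 38.5 CPM in Vitro and 36.6 to 47.5 CPM in Con, with 1 of 12 members (Cldn5) at 0.

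The libraries of the groups did not form separate clusters. Across the 12364 genes, the first principal component held 52.7% of the variance of log2 CPM and ran from Con replicates 1 and 3, at 46.7 and 30.6, to Vitro replicates 2 and 3, at -38.7 and -33.0. Vitro replicate 1, at -0.867, and Con replicate 2, at -4.61, met in the middle. The second component, with 15.5%, set Vitro replicate 1 apart from the other 5 libraries. Con replicate 2 correlated with the 3 Vitro libraries at r = 0.981, 0.979 and 0.978 across genes, and with Con replicates 1 and 3 at 0.970 and 0.978, which are correlations between levels of many genes and not a test. It lay between the mean of the other Con libraries and the Vitro mean for 5378 of all genes (43.5%). For many of the genes named below whose edgeR call appears without Con replicate 2, or whose fold change moves clearly without it, the value without it is given too. Con replicate 2 was singled out after its position was seen, so a call gained only without it is no added support.

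**Figure D1:**
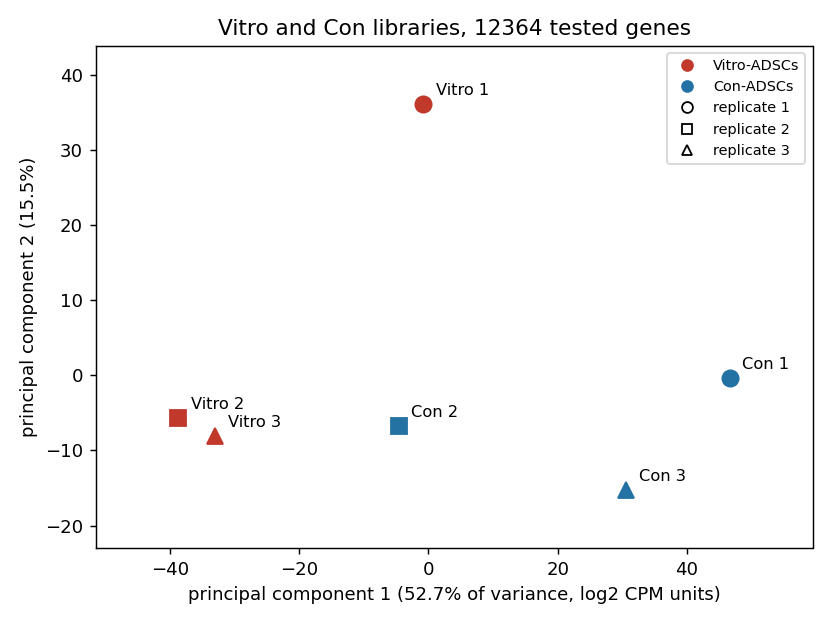
First 2 principal components of log2 CPM over 12364 genes, in log2 CPM units, for the 3 Vitro libraries (red) and the 3 Con libraries (blue), 1 point per library. Con replicate 2 and Vitro replicate 1 sit near 0 on the first axis, between Vitro replicates 2 and 3 on the left and Con replicates 1 and 3 on the right.

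What differed between continued culture and the starting culture? Time in culture, added passages and the day of harvest came together in these groups and cannot be told apart. In edgeR, 4 of 12364 genes passed (0.0324% of those tested). One gene rose, Ptprb (0.00809% of genes called higher). The other 3 fell: Dpysl4, Egr3 and LOC100910882 (0.0243% called lower). These 4 genes had no overlap between the groups, but separation of the libraries is common here, since 2643 genes (21.4%) were apart, 1373 higher (11.1%) and 1270 lower in Vitro (10.3%).

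Ptprb (ENSRNOG00000055293) encodes VE-PTP, a receptor tyrosine phosphatase best known from endothelium, where it acts on the angiopoietin receptor Tie2 and on VE-cadherin. Its level was 15.7, 14.3 and 13.5 CPM in Vitro and 5.29, 4.64 and 4.63 CPM in Con. Each group was tight and the lowest Vitro library was far above the highest Con library. The mean rose 2.99-fold (log2 1.58 ± 0.18, edgeR adjusted p = 0.019). In Vivo cells it was at 0.326, 0.272 and 0.229 CPM, below both cultures, and fell by 5.68 on the log2 scale against Vitro (edgeR adjusted p = 7.0e-06). That second comparison shares the Vitro libraries with the first, so the 2 fold changes are not independent. Of the 3 endothelial markers with enough counts to test, 2 were fitted higher in Vitro and 1 lower. The Tie2 gene Tek, 1 of them, was at 4.31, 8.10 and 8.71 CPM in Vitro and 5.51, 5.21 and 6.20 CPM in Con, with overlap. The summed endothelial markers overlapped between the groups, as given above. Most of that sum was Egfl7, the marker fitted lower, at 32.2, 26.8 and 22.0 CPM in Vitro and 37.2, 30.5 and 34.2 CPM in Con. Members with too few counts to test did not all go one way. Esam had 0, 0 and 2 counts in Vitro and 19, 3 and 3 in Con, and Tie1 1, 0 and 2 against 9, 0 and 2. Vwf had 6, 0 and 9 counts in Vitro and 8, 1 and 2 in Con. The part of endothelial markers in the level of Ptprb was not tested.

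Dpysl4 (ENSRNOG00000027582), a collapsin response mediator protein known mostly from neurons, was at 0.582, 0.270 and 0.372 CPM in Vitro and 4.21, 3.62 and 4.17 CPM in Con. All 3 Vitro libraries were below 1 CPM while Con libraries lay close together. It fell by 3.28 ± 0.35 on the log2 scale (edgeR adjusted p = 0.014), and the mean level of Con was 10.5-fold that of Vitro. Vivo libraries held 3.32, 4.74 and 4.86 CPM, a range that overlaps that of Con, and were above Vitro by 3.38 on the log2 scale (edgeR adjusted p = 4.3e-04).

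Egr3 (ENSRNOG00000017828), a zinc finger transcription factor of the immediate early class, showed a similar order. It was at 0.815, 0.486 and 0.691 CPM in Vitro and 3.81, 4.70 and 6.43 CPM in Con, and fell by 2.90 ± 0.31 on the log2 scale (edgeR adjusted p = 0.014). In Vivo it reached 16.8, 11.6 and 13.4 CPM, above both cultures (log2 4.38 against Vitro, edgeR adjusted p = 8.4e-05).

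LOC100910882 (ENSRNOG00000019848), annotated as RNA-binding protein 39-like, was at 7.22, 2.70 and 5.47 CPM in Vitro and 32.7, 36.6 and 40.3 CPM in Con, and fell by 2.83 ± 0.30 on the log2 scale (edgeR adjusted p = 0.014). Rbm39, a splicing factor gene with the near-identical product, was at 4.66, 9.56 and 8.18 CPM in Vitro and 0.910, 11.1 and 0.174 CPM in Con, so how reads were split between the copies is uncertain. The log2 fold change of Rbm39 was 0.88 (edgeR adjusted p = 0.84), and 3.76 without Con replicate 2 (edgeR adjusted p = 0.14). Summed, both entries came to 11.9, 12.3 and 13.7 CPM in Vitro and 33.6, 47.7 and 40.4 CPM in Con. The summed value fell by 1.69 on the log2 scale (edgeR adjusted p = 0.013, a sum chosen after seeing the data). Vivo libraries had 8.32, 10.0 and 7.65 CPM for the first entry, which did not pass against Vitro (edgeR adjusted p = 0.135).

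**Figure D2:**
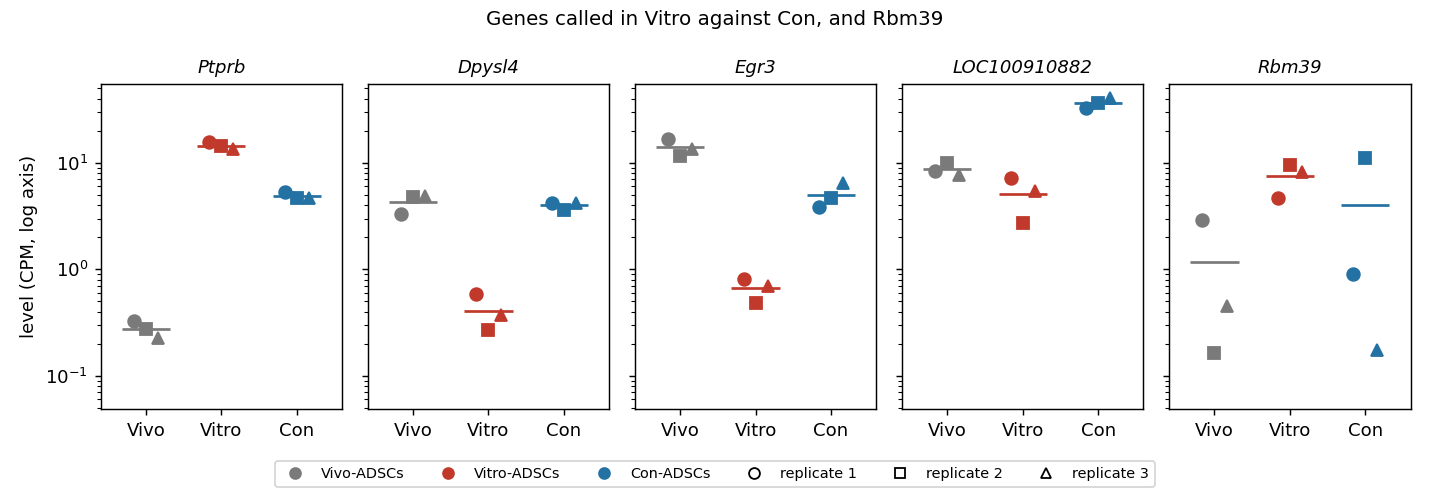
Level in CPM on a log axis of the 4 genes called by edgeR and of Rbm39 in each Vivo (grey), Vitro (red) and Con library (blue), with the mean of each group as a line. Vitro libraries of Ptprb lie at 13.5 to 15.7 CPM, above all Con libraries, and those of Dpysl4, Egr3 and LOC100910882 lie below all Con libraries.

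All 4 calls were fragile to the loss of a library. LOC100910882 and Dpysl4 stayed called without Con replicate 2 (edgeR adjusted p = 0.027 and 0.026) or Vitro replicate 1 (0.026 each), and LOC100910882 also without Vitro replicate 2 (0.018). Egr3 stayed called without the same Con replicate 2 (0.026) or Vitro replicate 1 (0.036), and Ptprb without Con replicate 2 alone (0.036). Without Con replicate 1 the adjusted p-values were 0.072 for Dpysl4, 0.054 for Egr3, 0.072 for LOC100910882 and 0.0996 for Ptprb. Without Con replicate 3 they were 0.104 for the 3 lower genes and 0.208 for Ptprb. Leaving out Vitro replicate 3 gave 0.138 for all 4, leaving out Vitro replicate 2 gave 0.119 for Dpysl4 and Egr3 and 0.183 for Ptprb, and leaving out Vitro replicate 1 gave 0.0598 for Ptprb. The fold changes kept their direction in each of the 15 alternatives run for each gene, from -3.61 to -0.957 for Dpysl4, from -3.12 to -0.91 for Egr3, from -3.24 to -2.49 for LOC100910882 before summing and from 0.728 to 1.64 for Ptprb.

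The tools differed widely in how many further genes they called. DESeq2 called 299 genes (2.42%), 128 higher in Vitro (1.04%) and 171 lower (1.38%). All 4 edgeR calls were among them. For 272 of the 299 genes the Vitro and Con libraries did not overlap, and edgeR's adjusted p for them ran from 0.014 to 0.287. Without Con replicate 2, edgeR called 54 genes (0.429% of 12573), 19 higher (0.151%) and 35 lower (0.278%), and 41 of the 54 were among DESeq2's 299. Con replicate 2 lay between the other Con libraries and Vitro for 268 of those 299 genes (89.6%). limma with sample quality weights called 2690 genes (21.8%), 1405 higher (11.4%) and 1285 lower (10.4%). It gave Vitro replicate 1 a weight of 0.514 and Con replicate 2 a weight of 0.698, so the libraries between the groups counted less. Con replicates 1 and 3 had 1.19 and 2.61, Vitro replicates 2 and 3 had 2.24 and 1.69, and Vivo replicate 3 had 0.0942. Each count from limma with weights given below rests on this weighting. limma on log2(FPKM + 1) called 3, 1 higher (0.00809%) and 2 lower (0.0162%). At an unadjusted edgeR p under 0.05 stood 1405 genes (11.4%), 752 higher (6.08%) and 653 lower (5.28%). Genes outside edgeR's 4 are therefore given below by their values, with the tool that called them named.

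**Figure D3:**
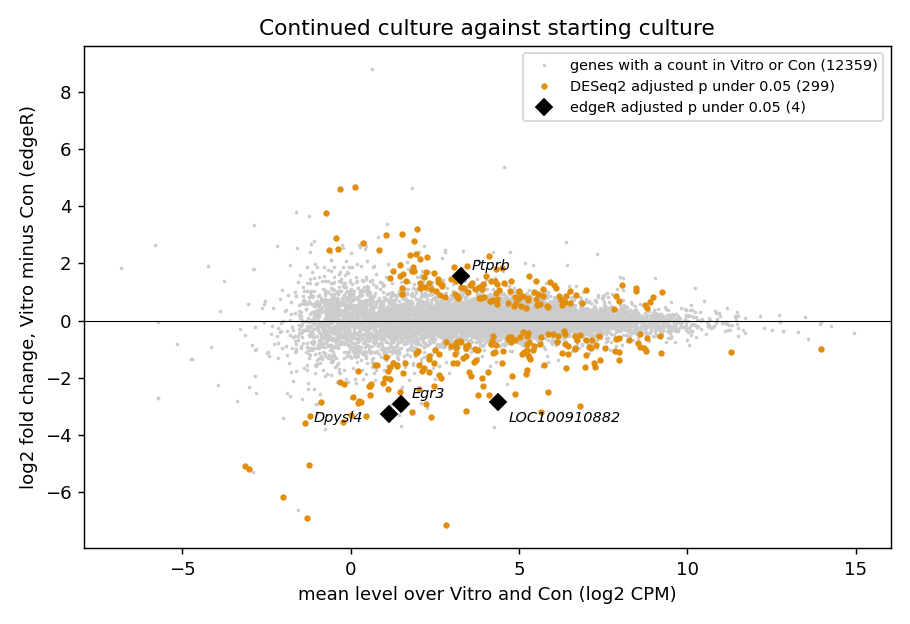
Log2 fold change, Vitro minus Con, against the mean level over both groups in log2 CPM for 12359 tested genes with a count in either group, 1 point per gene. Black diamonds are the 4 edgeR calls and orange points the 299 DESeq2 calls, which lie on both sides of 0.

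Among DESeq2's calls higher in Vitro, the 12 with the largest fold changes (established symbol, no overlap, at least 5 CPM in the higher group) are described first. Csf2, which encodes the cytokine GM-CSF, was at 5.36, 11.1 and 4.89 CPM in Vitro and 0.114, 2.04 and 0.116 CPM in Con (log2 3.22 ± 0.87, DESeq2 adjusted p = 0.012, edgeR adjusted p = 0.23). Con replicate 2 was the high Con library, and without it the log2 fold change was 5.87 and edgeR called the gene (adjusted p = 0.027), with both remaining Con libraries below the floor. Tlr2, a receptor for bacterial lipoproteins, was at 21.0, 40.2 and 24.2 CPM in Vitro and 2.67, 10.1 and 5.04 CPM in Con. Again Con replicate 2 was nearest to Vitro, and without it the log2 fold change was 2.88 instead of 2.26 (edgeR adjusted p = 0.052). The secreted phospholipase gene Pla2g2a was at 4.43, 7.94 and 3.08 CPM in Vitro and 0.398, 1.30 and 0.174 CPM in Con (log2 3.03, and 4.13 without Con replicate 2). Aass, the first enzyme of lysine breakdown, was at 3.44, 8.10 and 7.81 CPM in Vitro and 1.02, 1.30 and 1.51 CPM in Con. Sema3e, a secreted guidance ligand of plexin D1, was at 11.7, 21.5 and 18.4 CPM in Vitro and 2.39, 7.70 and 3.65 CPM in Con (log2 1.91, and 2.51 without Con replicate 2). Mybl1, a transcription factor of the Myb family, was at 18.2, 41.6 and 46.1 CPM in Vitro and 5.69, 14.4 and 9.50 CPM in Con. Wdr62, a spindle pole protein gene, was at 8.10, 19.7 and 12.1 CPM in Vitro and 1.53, 4.53 and 4.75 CPM in Con. The remaining 5, Polr2i, Myrip, Uchl3, Vgll2 and Dcdc2, had log2 fold changes of 1.89 to 2.78. Without Con replicate 2 the value was 3.79 for Polr2i, 3.02 for Myrip and 2.79 for Vgll2, against 2.78, 2.30 and 2.16 with it. With all libraries, edgeR's adjusted p was between 0.13 and 0.26 for all 12.

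The 12 DESeq2 calls with the largest fold changes below Con, by the same criteria, included the following genes. Rarres2, which encodes the adipokine chemerin, was at 41.4, 9.61 and 24.5 CPM in Vitro and 284, 53.8 and 255 CPM in Con (log2 -2.97 ± 0.68, DESeq2 adjusted p = 0.0097, edgeR adjusted p = 0.19). The groups did not overlap, but Con replicate 2 lay close to Vitro replicate 1. Agtr1a, the type 1 angiotensin II receptor gene, was at 11.4, 4.86 and 9.46 CPM in Vitro and 78.5, 16.3 and 55.9 CPM in Con. Apoe, the lipid carrier apolipoprotein E, was at 4.31, 2.00 and 5.31 CPM in Vitro and 30.6, 8.60 and 31.2 CPM in Con. For these genes Con replicate 2 was the lowest Con library. Lbp, a binding protein for bacterial lipopolysaccharide, was at 25.2, 9.99 and 18.3 CPM in Vitro and 102, 57.0 and 139.7 CPM in Con. Spon1, which encodes the matrix protein F-spondin, was at 2.10, 2.00 and 2.28 CPM in Vitro and 16.9, 8.09 and 32.4 CPM in Con (log2 -3.17 ± 0.46, edgeR adjusted p = 0.12), and edgeR called it with no filter on low counts. Cygb, the globin of fibroblasts and stellate cells, was at 1.34, 1.13 and 0.850 CPM in Vitro and 13.7, 3.23 and 8.34 CPM in Con. The aminopeptidase gene Lvrn was at 17.1, 3.19 and 9.62 CPM in Vitro and 135, 18.1 and 119 CPM in Con. Without Con replicate 2, edgeR called Rarres2 (adjusted p = 0.046), Agtr1a (0.034), Apoe (0.037), Lbp (0.036), Spon1 (0.026), Cygb (0.027), Lvrn (0.036), the CDK inhibitor gene Cdkn1c (0.036) and the carboxypeptidase gene Cpz (0.036). Con replicate 2 was the lowest Con library for each gene just named, so leaving it out had to widen the difference. The other 3, Plac8, Itga9 and Mdk, had log2 fold changes of -3.21, -2.29 and -2.29.

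Levels in Vivo are set beside these for some of the genes, picked after their values were seen. Between Vivo and Vitro, edgeR called 1348 genes (10.9%), 665 higher in Vivo (5.38%) and 683 lower (5.52%). Apoe reached 139, 92.0 and 219 CPM in Vivo (log2 5.27 against Vitro, edgeR adjusted p = 6.8e-04), above all Con libraries. Cygb was at 21.8, 12.5 and 30.2 CPM in Vivo (4.27, adjusted p = 0.0014 in edgeR) and Rarres2 at 212, 209 and 451 CPM (3.53, adjusted p = 0.011 in edgeR), ranges that overlap those of Con. Of the genes higher in Vitro, Aass stood at 8.48, 4.90 and 6.85 CPM in Vivo (0.06, adjusted p = 0.92 in edgeR) and Tlr2 at 24.9, 11.1 and 12.6 CPM (-0.81, adjusted p = 0.28 in edgeR), neither passing. Sema3e stood at 1.96, 3.60 and 0.571 CPM in Vivo (-3.07, adjusted p = 0.011 in edgeR) and Dcdc2, a microtubule-binding doublecortin gene, at 0.598, 0.218 and 0.0571 CPM (-4.26, adjusted p = 0.0017 in edgeR). Both comparisons use the same Vitro libraries, so a chance excursion of Vitro would enter both.

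**Figure D4:**
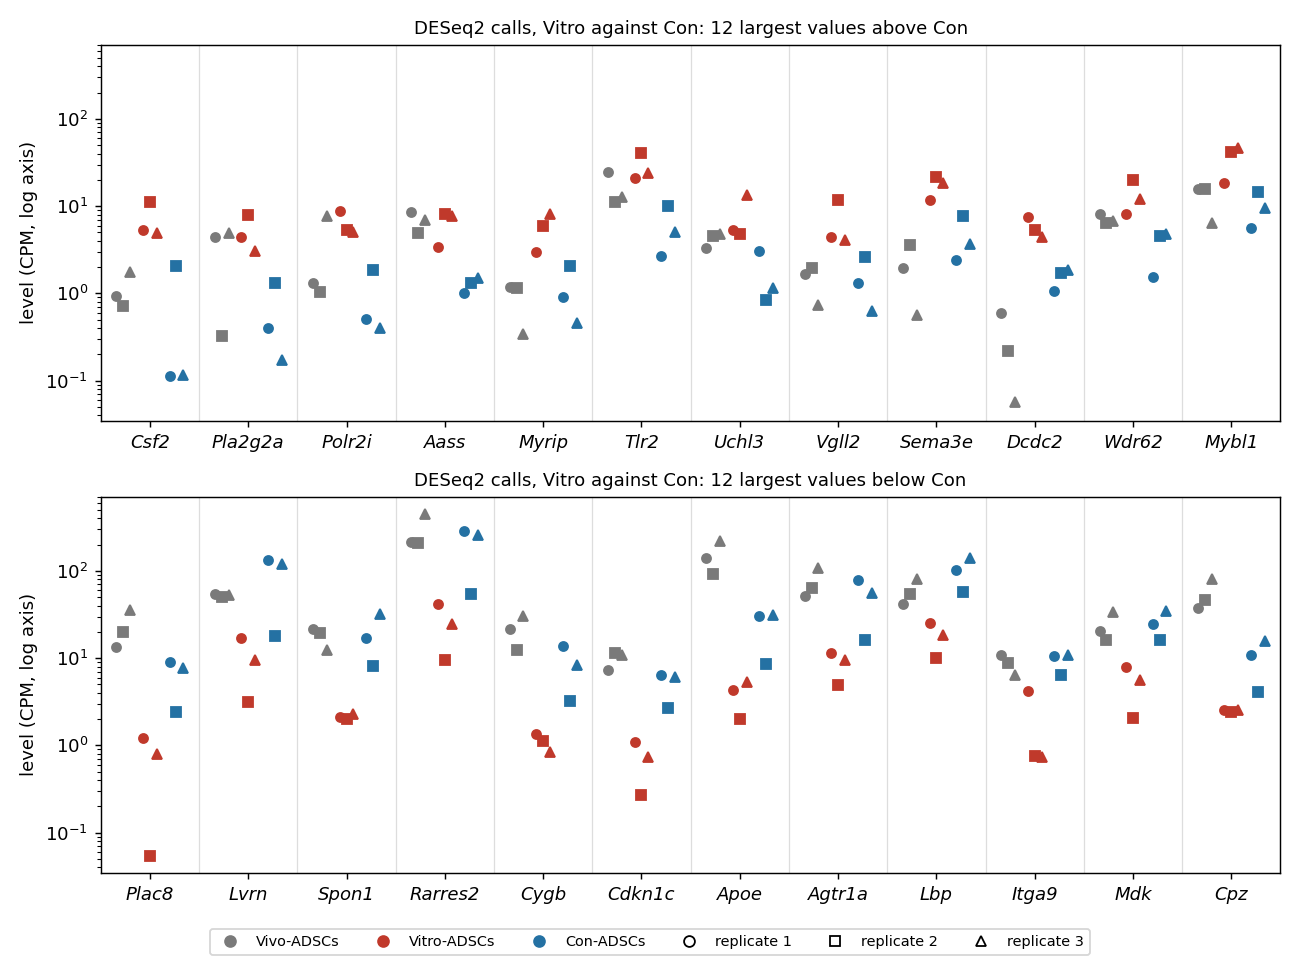
Level in CPM on a log axis of the 24 DESeq2 calls with the largest fold changes above Con (top) and below Con (bottom), for each Vivo (grey), Vitro (red) and Con library (blue), 1 point per library. Con replicate 2 (blue square) is the Con library nearest to Vitro for most of them, for example 53.8 CPM for Rarres2 against 284 and 255 CPM in the other Con libraries.

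Genes of DNA replication and mitosis were all fitted higher in Vitro, but Con replicate 2 lay above Vitro replicate 1 in nearly all of them. All 31 tested genes of the DNA replication list had fitted values higher in Vitro, with a median log2 fold change of 0.81, against a median of -0.001 over all genes, of which 6164 of 12364 were fitted higher. Genes of one list share their libraries and move together, so their number is no measure of certainty. edgeR called 0 of the 31, with 25 at an unadjusted p under 0.05, all higher, and DESeq2 called 3 (Pola1, Ccne2 and Chaf1a) and limma with weights 30. In all 31 genes Vitro replicates 2 and 3 were above every Con library, and in 30 Con replicate 2 was above Vitro replicate 1, so that 1 gene was apart between the groups (3.23%). Without Con replicate 2 the median was 1.11 and edgeR still called 0. The replicative helicase gene Mcm2 was at 41.7, 76.5 and 86.5 CPM in Vitro and 30.5, 54.7 and 34.0 CPM in Con (log2 0.78 ± 0.29, edgeR adjusted p = 0.35). Pola1, the catalytic subunit of DNA polymerase alpha, was the gene that stood apart, at 17.6, 29.1 and 32.4 CPM in Vitro and 9.84, 16.1 and 14.1 CPM in Con (log2 0.98 ± 0.26, edgeR adjusted p = 0.23, DESeq2 adjusted p = 0.032). Ccne2, cyclin E2, which starts S phase with CDK2, had the largest fitted value of the list, 1.38, at 19.1, 44.0 and 55.5 CPM in Vitro and 10.0, 21.2 and 14.5 CPM in Con.

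The mitosis list showed the same order of libraries. All 30 tested genes had fitted values higher in Vitro, with a median of 0.69 (0.96 without Con replicate 2). edgeR called 0 with either set of libraries, with 21 at an unadjusted p under 0.05, all higher, DESeq2 called 0 and limma with weights 30. Mki67, the proliferation antigen Ki-67, was at 176, 278 and 325 CPM in Vitro and 105, 172 and 123 CPM in Con (log2 0.96 ± 0.30, edgeR adjusted p = 0.27). Its groups touched at Vitro replicate 1 and Con replicate 2 without overlapping, and it was the 1 gene of the list to stand apart (3.33%). Top2a, the topoisomerase that untangles sister chromatids, was at 153, 245 and 275 CPM in Vitro and 95.5, 167 and 129 CPM in Con. Cdk1, the mitotic kinase, was at 83.5, 131 and 135 CPM in Vitro and 58.2, 108 and 72.1 CPM in Con (log2 0.55 ± 0.27, edgeR adjusted p = 0.49). Vivo libraries were not above Vitro for these genes beyond their spread: Mki67 stood at 305, 259 and 157 CPM (edgeR adjusted p = 0.83) and Cdk1 at 125, 109 and 175 CPM (edgeR adjusted p = 0.61). Among G1 cyclins and kinases 6 of 10 were fitted higher and 4 lower, and edgeR called 0 of 10, with 3 at an unadjusted p under 0.05, all higher, DESeq2 0 and limma with weights 4. Ccnd1, cyclin D1, was at 193, 285 and 288 CPM in Vitro and 116, 207 and 107 CPM in Con (edgeR adjusted p = 0.31).

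Promoters are shown for the replication and mitosis lists, whose members were all fitted higher, and for the immediate early list, with 20 of 23 fitted lower. RefSeq promoter sequences (build GRCr8) ran from 250 bases before to 50 after a gene's start. They numbered 28 for the replication list, 24 for the mitosis list and 16 for the immediate early list. A gene can have several promoters in this set. An E2F site, spelled TTTGGCGC or TTTCCCGC on either strand, was in 11 of the 28 replication promoters (39.3%), in 0 of the mitosis promoters in 1.45% of all 33469 promoters and in 2.83% of the 10210 promoters of tested genes. The cell cycle homology region (CHR), TTTGAA on either strand, was in 18 of the 24 mitosis promoters (75%), in 18.3% of all and in 11.9% of those of tested genes. The SRF motif known as the CArG box was in 4 of the 16 immediate early promoters (25%), in 1.64% of all and in 1.32% of those of tested genes. Other motifs were searched too. The CRE, TGACGTCA, was also in 4 of the 16 (25%), against 3.12% of promoters of tested genes. The CCAAT box was in 75% of mitosis, 60.7% of replication and 37.5% of immediate early promoters, against 37.2% of those of tested genes. Matches of the E2F, CHR and CArG motifs did not overlap each other in any of the 68 promoters. A match describes letters and says nothing of whether a factor binds. For each list the member with its motif and the smallest unadjusted p is printed from 5′ to 3′ on the gene's strand, with the motif in capitals. Pola1 lies on the minus strand of chromosome X (chrX:62342306-62342605) with 1 E2F site that begins 172 bases before the start, read from the opposite strand. Mki67 lies on the minus strand of chromosome 1 (chr1:199952544-199952843) with CHR letters that begin 117 and 99 bases before the start. Egr1 lies on the plus strand of chromosome 18 (chr18:26736828-26737127) with CArG boxes that begin 105 and 83 bases before the start.
Pola1: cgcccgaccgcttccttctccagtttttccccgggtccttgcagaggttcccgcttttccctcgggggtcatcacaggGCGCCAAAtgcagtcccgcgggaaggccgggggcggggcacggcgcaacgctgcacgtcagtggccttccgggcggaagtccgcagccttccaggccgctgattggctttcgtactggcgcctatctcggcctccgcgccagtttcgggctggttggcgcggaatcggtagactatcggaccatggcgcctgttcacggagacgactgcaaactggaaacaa
Mki67: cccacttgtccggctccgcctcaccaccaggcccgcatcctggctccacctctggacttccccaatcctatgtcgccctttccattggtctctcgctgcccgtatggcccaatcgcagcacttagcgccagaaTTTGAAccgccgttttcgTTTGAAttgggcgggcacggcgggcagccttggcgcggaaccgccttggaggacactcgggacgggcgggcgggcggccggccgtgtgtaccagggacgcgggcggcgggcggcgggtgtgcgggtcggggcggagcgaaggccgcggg
Egr1: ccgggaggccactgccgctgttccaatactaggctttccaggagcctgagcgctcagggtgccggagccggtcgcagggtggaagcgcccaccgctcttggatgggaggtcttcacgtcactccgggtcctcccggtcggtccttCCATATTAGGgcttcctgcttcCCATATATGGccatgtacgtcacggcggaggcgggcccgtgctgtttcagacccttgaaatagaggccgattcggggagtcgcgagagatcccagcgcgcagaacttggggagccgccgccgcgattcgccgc

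Of the CDK inhibitor genes, 4 were fitted higher in Vitro and 2 lower. Of all 6 CDK inhibitor genes tested, edgeR called 0, with 3 higher and 1 lower at an unadjusted p under 0.05, DESeq2 called the same numbers, 3 higher and 1 lower, and limma with weights 3 higher and 2 lower. Cdkn1a, which encodes p21, was at 125, 142 and 141 CPM in Vitro and 60.9, 86.0 and 71.3 CPM in Con (log2 0.90 ± 0.18, edgeR adjusted p = 0.18, DESeq2 adjusted p = 0.0014). Cdkn2a, which encodes p16 and ARF, was at 5.36, 9.61 and 6.75 CPM in Vitro and 0.910, 4.07 and 1.74 CPM in Con (log2 1.69 ± 0.51, edgeR adjusted p = 0.26, DESeq2 adjusted p = 0.043), and its log2 fold change without Con replicate 2 was 2.45 (edgeR adjusted p = 0.070). For both genes the Vitro libraries were all above Con, with Con replicate 2 the highest Con library. Cdkn2b, which encodes p15, was at 13.5, 16.9 and 12.3 CPM in Vitro and 5.80, 7.24 and 6.20 CPM in Con. Cdkn1c, which encodes p57, was at 1.11, 0.270 and 0.744 CPM in Vitro and 6.48, 2.66 and 6.02 CPM in Con (log2 -2.84 ± 0.49, edgeR adjusted p = 0.14). In Vivo it was at 7.39, 11.5 and 10.9 CPM (3.81 against Vitro, edgeR adjusted p = 0.0014).

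Of the secreted factors linked to senescence, 20 were fitted higher in Vitro and 7 lower. The libraries of 6 were apart on the higher side (22.2%, against 11.1% of all genes) and of 3 on the lower (11.1%, against 10.3%). Of 27 tested, edgeR called 0, with 10 higher and 3 lower at an unadjusted p under 0.05, DESeq2 called 4 higher and 1 lower, and limma with weights 8 higher and 5 lower, with a median of 0.42. Without Con replicate 2 edgeR called 1 higher, Csf2, and 1 lower, Igfbp4. Igfbp4, a binding protein that holds IGFs, was at 21.9, 23.2 and 22.7 CPM in Vitro and 51.8, 36.6 and 55.9 CPM in Con (log2 -1.09 ± 0.17, edgeR adjusted p = 0.13, DESeq2 adjusted p = 2.1e-05). The Vitro libraries were tight and Con replicate 2 was the lowest of Con. Lamin B1 (Lmnb1), whose loss marks senescent cells, was at 47.0, 74.1 and 75.6 CPM in Vitro and 34.7, 62.7 and 39.6 CPM in Con (edgeR adjusted p = 0.49). Il6 did not separate, at 217, 277 and 219 CPM in Vitro and 122, 255 and 233 CPM in Con (edgeR adjusted p = 0.86).

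The immediate early list was the one list with an edgeR call, Egr3. Of 23 tested members 1 was called lower and 0 higher, 11 had an unadjusted p under 0.05, all lower, DESeq2 called 4, all lower, and limma with weights 11 lower and 1 higher. The median log2 fold change was -0.49 and 20 of 23 fitted values were lower. For 11 members the libraries were apart, all lower in Vitro, where 10.3% of all genes were. Vitro medians over the list were -0.219, -0.251 and -0.138, and those of Con 0.173, 0.128 and 0.382, in log2 CPM around the mean of the 6 libraries, so all Vitro medians lay below all Con medians. Egr1, a serum-induced zinc finger factor, was at 93.7, 67.0 and 70.1 CPM in Vitro and 146, 136 and 253 CPM in Con (log2 -1.21 ± 0.27, edgeR adjusted p = 0.19, DESeq2 adjusted p = 0.0028). Junb, a partner in AP-1, was at 122, 114 and 98.0 CPM in Vitro and 170.4, 160.1 and 199 CPM in Con. Socs3, which dampens cytokine receptors, was at 19.4, 11.7 and 14.0 CPM in Vitro and 38.6, 22.0 and 33.4 CPM in Con. All 3 genes separated the groups. Fos was at 3.55, 4.38 and 5.84 CPM in Vitro and 6.88, 6.4 and 12.6 CPM in Con (log2 -0.91 ± 0.40, edgeR adjusted p = 0.43). Vivo libraries were higher than both cultures for Fos, at 145, 256 and 405 CPM (5.87 against Vitro, edgeR adjusted p = 1.2e-04), and for Egr1, at 403, 446 and 620 CPM (2.67, edgeR adjusted p = 4.6e-04).

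**Figure D5:**
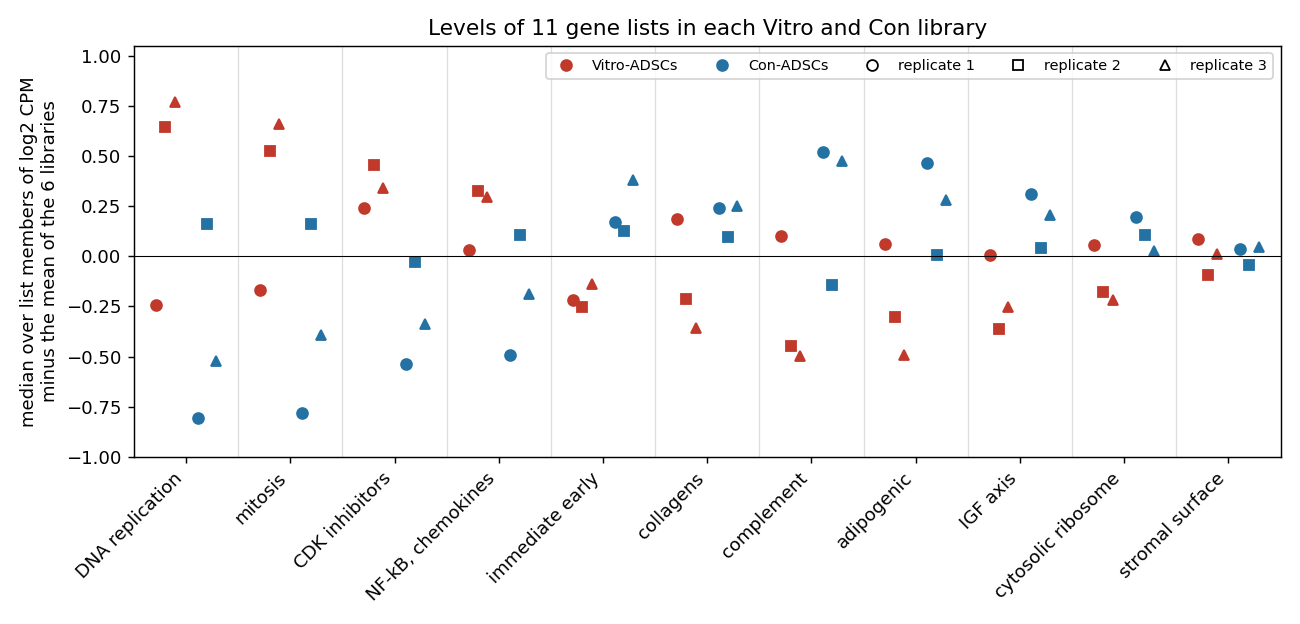
Median over the tested members of each of 11 lists of log2 CPM minus the gene's mean over the 6 libraries, for each Vitro (red) and Con (blue) library. In the replication list Vitro replicate 1 lies at -0.243, below Con replicate 2 at 0.159, while in the immediate early list all Vitro libraries lie below all Con libraries.

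Genes of the extracellular matrix were mostly fitted lower, 17 of 22 collagen chains and 26 of 32 other matrix genes. Of the 22 collagen chain genes edgeR called 0, with 5 lower and 0 higher at an unadjusted p under 0.05, DESeq2 called 4, all lower, and limma with weights 11 lower and 1 higher, with a median of -0.34. Col3a1, the fibrillar type III chain, was at 13939, 8496 and 9707 CPM in Vitro and 26618, 13962 and 23010 CPM in Con (log2 -0.98 ± 0.26, edgeR adjusted p = 0.23, DESeq2 adjusted p = 0.017). Vitro replicate 1 and Con replicate 2 differed by less than 100 CPM, so the groups barely separated. Col14a1, a chain that decorates collagen fibrils, was at 358, 241 and 266 CPM in Vitro and 642, 435 and 591 CPM in Con. Col6a1 and Col6a2, chains of the microfibrillar type VI collagen, had log2 fold changes of -0.48 ± 0.13 and -0.53 ± 0.15 (DESeq2 adjusted p = 0.013 and 0.041). Col1a1, the most abundant chain, was at 34768, 23690 and 21464 CPM in Vitro and 36879, 34155 and 37553 CPM in Con, with overlap at Vitro replicate 1 (edgeR adjusted p = 0.43). Among the 32 other matrix glycoprotein and proteoglycan genes edgeR called 0, with 2 higher and 5 lower at an unadjusted p under 0.05, DESeq2 1 higher and 3 lower, and limma with weights 2 higher and 11 lower. Fbn1, fibrillin-1, was at 412, 381 and 321 CPM in Vitro and 1141, 518 and 761 CPM in Con (log2 -1.12 ± 0.31, DESeq2 adjusted p = 0.026). Eln, elastin, was low in all 6 libraries, at 0.117, 0.432 and 0.319 CPM in Vitro and 2.10, 0.566 and 1.33 CPM in Con (edgeR adjusted p = 0.26), against 426, 366 and 767 CPM in Vivo (10.76 against Vitro, edgeR adjusted p = 2.0e-05). Spp1, osteopontin, was on the higher side, at 42.6, 59.3 and 75.9 CPM in Vitro and 18.5, 26.0 and 15.5 CPM in Con (log2 1.57 ± 0.27, DESeq2 adjusted p = 4.5e-05, edgeR adjusted p = 0.14 and 0.046 without Con replicate 2).

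Enzymes that act on matrix and the contractile apparatus gave 0 edgeR calls, while most collagen processing genes were fitted lower. In the list of collagen processing enzymes (16 tested) edgeR called 0, with 8 lower at an unadjusted p under 0.05, DESeq2 1 lower (Bmp1, the procollagen C-proteinase, log2 -0.55 ± 0.14) and limma with weights 9 lower. Over all genes 5.28% were lower at that unadjusted p and 10.4% in limma with weights. In this list 13 of 16 were fitted lower. The libraries of 6 were apart on the lower side (37.5%, against 10.3% of all genes) and of 1 on the higher (6.25%, against 11.1%). In the list of matrix proteases and inhibitors (23 tested) edgeR called 0, with 6 higher and 2 lower at an unadjusted p under 0.05, DESeq2 2 higher, and limma with weights 5 higher and 8 lower. Mmp16, a membrane metalloproteinase, was at 18.1, 23.6 and 17.3 CPM in Vitro and 8.81, 9.85 and 7.30 CPM in Con (log2 1.18 ± 0.24, DESeq2 adjusted p = 0.0015). In the contractile list (20 tested) edgeR called 0, with 5 higher and 1 lower at an unadjusted p under 0.05, DESeq2 1 higher, and limma with weights 7 higher and 2 lower. That gene was Myocd, the SRF coactivator myocardin, at 5.88, 6.48 and 5.42 CPM in Vitro and 2.05, 2.15 and 3.01 CPM in Con (log2 1.30 ± 0.28, edgeR adjusted p = 0.19), and its groups lay clear of each other. Acta2, smooth muscle actin, overlapped, at 1575, 847 and 1124 CPM in Vitro and 884, 1235 and 1063 CPM in Con (edgeR adjusted p = 0.91). Among 17 YAP and TEAD targets edgeR called 0, with 1 lower at an unadjusted p under 0.05, DESeq2 0, and limma with weights 2 higher and 3 lower.

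Lineage genes were split. In the adipogenic list (17 tested) edgeR called 0, with 7 lower and 0 higher at an unadjusted p under 0.05, DESeq2 3 lower, and limma with weights 9 lower and 2 higher, with a median of -0.46. Besides Apoe, DESeq2 called Cebpa, an adipogenic transcription factor, at 4.02, 3.51 and 3.61 CPM in Vitro and 10.3, 5.15 and 7.18 CPM in Con, and Srebf1, the lipogenic factor SREBP1, at 42.8, 40.7 and 37.7 CPM in Vitro and 68.2, 53.1 and 60.0 CPM in Con. Lpl, lipoprotein lipase, was at 419, 194 and 274 CPM in Vitro and 644, 394 and 739 CPM in Con, with overlap at Vitro replicate 1 (log2 -1.004 ± 0.31, edgeR adjusted p = 0.27). Pparg, the master regulator of adipogenesis, had too few counts to be tested: 7, 0 and 3 in Vitro and 75, 8 and 27 in Con. The mature adipocyte markers summed to 0.903 to 2.04 CPM in Vitro and 1.76 to 2.03 CPM in Con, with Retn and Pck1 of 10 at 0. In the osteogenic list (11 tested) edgeR called 0, with 3 higher and 2 lower at an unadjusted p under 0.05, DESeq2 2 higher (Spp1 and the homeobox gene Msx2), and limma with weights 3 each way. Runx2, the osteoblast regulator, was at 45.8, 35.2 and 38.2 CPM in Vitro and 50.9, 45.3 and 55.5 CPM in Con (edgeR adjusted p = 0.54). In the chondrogenic list (7 tested) edgeR called 0, with 1 higher at an unadjusted p under 0.05, DESeq2 0 and limma with weights 2 higher. Sox9, its main factor, was at 63.0, 37.5 and 45.6 CPM in Vitro and 40.0, 38.1 and 45.3 CPM in Con (edgeR adjusted p = 0.76).

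Surface markers used to define ADSCs had no common direction. Of 21 tested, edgeR called 0, with 2 higher and 4 lower at an unadjusted p under 0.05, DESeq2 called 1 higher (Cspg4) and 1 lower (Anpep), and limma with weights 3 higher and 5 lower, with a median of 0.03. Anpep, CD13, was at 174, 123 and 118 CPM in Vitro and 437, 222 and 423 CPM in Con (log2 -1.38 ± 0.30, edgeR adjusted p = 0.19 and 0.046 without Con replicate 2). Cspg4, the NG2 proteoglycan also used as a pericyte marker, was at 18.8, 24.9 and 21.0 CPM in Vitro and 7.33, 11.4 and 7.94 CPM in Con (log2 1.28 ± 0.29, edgeR adjusted p = 0.19). The pericyte and smooth muscle markers as a list summed to 223 to 366 CPM in Vitro and 220.0 to 243 CPM in Con, with Higd1b of 12 at 0. Cspg4 did not stand for that list. Of its 10 tested genes 4 were fitted higher and 6 lower, with a median of -0.26. There edgeR called 0 and DESeq2 called 1 higher, Cspg4, and 3 lower, among them Notch3, whose counts are given below. Cd44, the hyaluronan receptor, was at 242, 344 and 403 CPM in Vitro and 228, 241 and 207 CPM in Con, with all Vitro libraries the higher (edgeR adjusted p = 0.35). Eng, endoglin, was at 48.1, 51.3 and 51.8 CPM in Vitro and 79.2, 71.6 and 95.9 CPM in Con, with all Vitro libraries the lower (log2 -0.71 ± 0.20, edgeR adjusted p = 0.23). Nt5e (CD73) and Pdgfra overlapped, at 499.7, 263 and 368 CPM and 742, 552 and 514 CPM in Vitro, and at 629, 400.5 and 533 CPM and 971, 591 and 888 CPM in Con. Cd34, which cultured ADSCs usually lose, was under 0.5 CPM in all 6 libraries, with 5, 4 and 6 counts in Vitro and 8, 5 and 4 in Con. Among 24 integrin and cadherin genes edgeR called 0, with 5 higher and 2 lower at an unadjusted p under 0.05, DESeq2 1 each way (Itga3 higher, Itga9 lower), and limma with weights 8 higher and 4 lower. Itga3, a laminin-binding chain, was at 49.9, 75.4 and 71.7 CPM in Vitro and 22.9, 34.0 and 18.7 CPM in Con.

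Of the NF-kB list 24 of 28 genes were fitted higher, and of the complement list 12 of 16 were fitted lower, with overlap between the libraries in the median level of each list. In the list of NF-kB targets and chemokines (28 tested) edgeR called 0, with 8 higher and 0 lower at an unadjusted p under 0.05, DESeq2 2 higher, and limma with weights 12 higher and 0 lower, with a median of 0.40. Ccl20, a chemokine for CCR6 cells, was at 97.8, 95.2 and 89.6 CPM in Vitro and 53.9, 56.4 and 63.0 CPM in Con (log2 0.71 ± 0.15, DESeq2 adjusted p = 0.0025). Tnfaip3, the feedback inhibitor A20, was at 9.67, 16.2 and 8.61 CPM in Vitro and 3.52, 5.43 and 3.65 CPM in Con (log2 1.45 ± 0.33, DESeq2 adjusted p = 0.0051). Both genes separated the groups, while Con replicate 2 was above Vitro replicate 1 for 21 of the 28. In the complement list (16 tested) edgeR called 0, with 8 lower and 0 higher at an unadjusted p under 0.05, DESeq2 2 lower, and limma with weights 8 lower and 1 higher, with a median of -0.53. Serping1, the C1 inhibitor, was at 79.3, 46.7 and 56.3 CPM in Vitro and 189, 120.1 and 248 CPM in Con (log2 -1.61 ± 0.34, DESeq2 adjusted p = 0.001, edgeR adjusted p = 0.19). C4b was the other DESeq2 call and its libraries overlapped, at 0.466, 1.84 and 0.478 CPM in Vitro and 17.97, 1.19 and 9.73 CPM in Con (edgeR adjusted p = 0.21 and 0.034 without Con replicate 2). Interferon response genes (28 tested) had 0 edgeR calls, with 1 higher and 2 lower at an unadjusted p under 0.05, 0 in DESeq2 and 4 lower in limma with weights.

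Ligands and their modulators gave single genes on both sides. Among 29 growth factor genes edgeR called 0, with 6 higher and 5 lower at an unadjusted p under 0.05, DESeq2 1 higher and 3 lower, and limma with weights 5 higher and 7 lower. Nrg1, the ErbB ligand neuregulin 1, was at 26.4, 27.2 and 24.3 CPM in Vitro and 8.36, 13.4 and 8.28 CPM in Con (log2 1.38 ± 0.21, DESeq2 adjusted p = 3.8e-06, edgeR adjusted p = 0.13 and 0.026 without Con replicate 2). Vegfa, the angiogenic growth factor, was at 385, 371 and 306 CPM in Vitro and 531, 507 and 566 CPM in Con (log2 -0.59 ± 0.13, DESeq2 adjusted p = 0.0033). The heparin-binding factors Mdk and Ptn were also lower by DESeq2, Mdk at 7.92, 2.05 and 5.63 CPM in Vitro and 24.7, 16.3 and 35.2 CPM in Con. Among 29 Wnt pathway genes edgeR called 0, with 1 higher and 6 lower at an unadjusted p under 0.05, DESeq2 1 higher and 2 lower, and limma with weights 1 higher and 9 lower. Axin2, a feedback inhibitor that Wnt signalling induces, was at 8.39, 9.61 and 9.51 CPM in Vitro and 3.30, 3.68 and 4.34 CPM in Con (log2 1.28 ± 0.24, DESeq2 adjusted p = 6.9e-04, edgeR adjusted p = 0.18). The ligand Wnt4 was at 27.5, 18.1 and 29.5 CPM in Vitro and 51.6, 44.7 and 55.4 CPM in Con. Neither gene overlapped between groups.

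In the TGF-beta and BMP list (42 tested) edgeR called 0, with 6 higher and 3 lower at an unadjusted p under 0.05, DESeq2 3 higher and 1 lower, and limma with weights 10 higher and 5 lower. Tgfb3, a ligand of the family, was at 117, 96.3 and 89.4 CPM in Vitro and 59.5, 79.2 and 54.9 CPM in Con. The libraries of 11 genes of this list were apart on the higher side (26.2%, against 11.1% of all genes) and of 1 on the lower (2.38%, against 10.3%). In the IGF axis (15 tested) edgeR called 0, with 1 higher and 6 lower at an unadjusted p under 0.05, DESeq2 1 higher and 3 lower, and limma with weights 1 higher and 7 lower. The higher gene, Pappa2, encodes a protease that cleaves IGF-binding proteins and was at 37.5, 30.9 and 24.8 CPM in Vitro and 6.08, 12.1 and 8.46 CPM in Con (log2 1.80 ± 0.41, DESeq2 adjusted p = 0.0023), against 0.109, 1.09 and 0.400 CPM in Vivo (-5.84 against Vitro, edgeR adjusted p = 2.6e-04). Irs2, the insulin receptor substrate, was at 28.1, 24.3 and 26.9 CPM in Vitro and 43.4, 36.0 and 38.2 CPM in Con. Notch genes (12 tested) had 0 edgeR calls, with 4 lower at an unadjusted p under 0.05, 3 lower in DESeq2 and 3 lower in limma with weights, from low levels. Heyl, a Notch-induced repressor, had 0 counts in each Vitro library and 6, 4 and 3 in Con, at least 4.50-fold lower if Vitro as a whole is set at 3 counts. Notch3 had 4, 3 and 0 counts in Vitro and 45, 9 and 29 in Con.

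Stress, metabolic and housekeeping lists gave 0 edgeR calls, but some had a larger share of genes apart on the lower side than all genes. In the integrated stress and unfolded protein list (26 tested) edgeR called 0, with 7 lower and 0 higher at an unadjusted p under 0.05, DESeq2 2 lower, and limma with weights 15 lower and 1 higher. Over all genes 5.28% were lower at that unadjusted p and 10.4% in limma with weights. The libraries of 10 genes of this list were apart on the lower side (38.5%, against 10.3% of all genes) and of 0 on the higher. Trib3, a pseudokinase induced by Atf4, was at 75.3, 35.3 and 34.7 CPM in Vitro and 123, 92.4 and 102 CPM in Con (log2 -1.13 ± 0.32, DESeq2 adjusted p = 0.032). The amino acid transporter gene Slc7a5 was at 403, 189 and 202 CPM in Vitro and 517, 507 and 482 CPM in Con. Hmox1, heme oxygenase 1, the DESeq2 call among 26 Nrf2 and antioxidant genes, was at 216, 104 and 134 CPM in Vitro and 401, 224 and 317 CPM in Con. That list had 0 edgeR calls, 1 higher and 3 lower at an unadjusted p under 0.05, and 2 higher and 7 lower in limma with weights. Per1 was the DESeq2 call among 17 clock genes, at 22.6, 21.6 and 23.4 CPM in Vitro and 35.5, 39.1 and 34.1 CPM in Con (log2 -0.69 ± 0.15, DESeq2 adjusted p = 0.007). In that list edgeR called 0, with 5 lower at an unadjusted p under 0.05, and limma with weights 5 lower. The libraries of 6 clock genes were apart on the lower side (35.3%) and of 1 on the higher (5.88%). Glycolysis and hypoxia genes (28 tested) had 0 edgeR calls, 1 higher and 4 lower at an unadjusted p under 0.05, 1 lower in DESeq2 (Vegfa) and 2 higher and 8 lower in limma with weights.

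Cytosolic ribosomal protein genes were fitted lower in 27 of 28, with a median of -0.22, and edgeR called 0, with 0 at an unadjusted p under 0.05, DESeq2 0 and limma with weights 4 lower. The libraries of 9 were apart on the lower side (32.1%, against 10.3% of all genes) and of 0 on the higher. Rplp0 was at 1729, 1534 and 1472 CPM in Vitro and 1975, 1860 and 1749 CPM in Con, apart by a small margin (log2 -0.24 ± 0.25, edgeR adjusted p = 0.79). Lists with edgeR and DESeq2 counts of 0 were cholesterol synthesis (24 tested, 1 lower at an unadjusted p under 0.05, limma with weights 1 higher and 5 lower), lysosome and autophagy (28 tested, 0 at an unadjusted p under 0.05, limma with weights 11 lower), oxidative phosphorylation (21 tested, 1 higher, limma with weights 1 higher), Hox genes (22 tested, 1 higher, limma with weights 2 higher and 1 lower) and nuclear lamina and chromatin genes (17 tested, 3 higher and 1 lower, limma with weights 10 higher and 1 lower). Heat shock genes (13 tested) had 0 edgeR calls, 3 higher at an unadjusted p under 0.05, 1 higher in DESeq2 (Dnajb4, an Hsp70 cochaperone, log2 0.55 ± 0.15) and 3 higher in limma with weights. limma on log2(FPKM + 1) called 0 members of every list. Mesothelial markers, mostly Krt7, summed to 170.1 to 386 CPM in Vitro and 109.8 to 287 CPM in Con, with Muc16 of 12 at 0. Schwann cell markers summed to 168 to 244 CPM in Vitro and 216 to 271 CPM in Con, with 2 of 7 at 0, Cdh19 among them, and skeletal muscle markers to 25.1 to 29.4 CPM in Vitro and 18.7 to 25.1 CPM in Con, with Myf5, Myog and Pax7 of 12 at 0. What part these cell type markers had in the results was not tested.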

How the data were processed

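Gene tables of whole-number counts and of FPKM values for 9 libraries were used as deposited. Per the submitters' processing notes, reads were aligned with HISAT2 to Rnor_6.0; for the counting tool and its strand setting, nothing is given in the sources used here. The labels name a stranded mRNA library kit. The FPKM values deposited by the authors served for 1 alternative, on log2(FPKM + 1).

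The deposited counts were tested with edgeR 4.0.16 in R 4.3.3: filterByExpr, TMM, and a quasi-likelihood fit over all 9 libraries (6 residual degrees of freedom), with Benjamini-Hochberg adjustment at 0.05. SE is the fold change divided by the root of F. Alternatives used DESeq2 1.42.0, limma 3.58.1, other filters and scaling, a replicate block and leaving out each library. The fit was also run on simulated counts, drawn independently for each library. Such counts hold no library that lies between the groups, so that run cannot speak to the libraries that do so here.

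The comparison and the gene lists were chosen with earlier results of these data known. Named genes are those called, a set of 25 markers, and members of 37 lists: called ones, otherwise the most abundant. After values were seen, the largest non-overlapping DESeq2 calls, DESeq2 calls within lists, each list's member with the smallest p, and Rbm39 were added. Cell type markers formed 8 further lists. 27 symbols turned into dates were not used by name. A few genes and 1 list that these rules name are not reported here.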

Additional observations from a re-analysis of the deposited data

How the results depend on the processing

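edgeR's 4 calls (1 higher, 3 lower) stayed 4 with DESeq2-style size factors or a 1 CPM filter and were 5 with no filter. DESeq2 called 299 genes (128 higher, 171 lower), limma with sample quality weights 2690 (1405 higher, 1285 lower), edgeR on the 6 libraries alone 0 (0 higher, 0 lower) and edgeR with gene length offsets 3 (0 higher, 3 lower), Ptprb being lost at an adjusted p of 0.0504. On the 6 libraries alone the adjusted p-values in edgeR were 0.082 for Dpysl4 and LOC100910882, 0.105 for Egr3 and 0.0752 for Ptprb. On log2(FPKM + 1), limma lost Egr3 (adjusted p = 0.163). Leaving out 1 library at a time gave 0 to 54 calls, 0 to 19 higher and 0 to 35 lower: 0 without Con replicate 1, Con replicate 3 or Vitro replicate 3, 1 without Vitro replicate 2, 6 without Vitro replicate 1 (5 of them lower) and 54 without Con replicate 2. The cause of these differences was not tested.

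With the replicate block edgeR called 7 genes (1 higher, 6 lower), adding Apoe, Cxcl14 and Ntrk2. Same-numbered libraries correlated in their deviations at 0.358, 0.324 and 0.0921. For Vitro replicates 1 and 2 these were the highest values with any Con library, the others lying at -0.339 to 0.0258. Vitro replicate 3 correlated at 0.0987 with Con replicate 2, slightly above its same-numbered value. Whether libraries with the same number share an origin is not stated and was not tested.

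Among the 106 genes followed, the sign of the log2 fold change turned in 9 cases, each with an adjusted p of at least 0.917 under that setting (edgeR or limma). Acta2 was at -0.032 with quality weights, and without 1 library at -0.11 to 0.35. Cd14 was at -0.0076 with gene length offsets and without 1 library at -0.052 to 0.16. Itgb1 was at 0.011 on log2(FPKM + 1) and without 1 library at -0.12 to 0.0051. Without 1 library Cd34 was at -0.41 to 0.093 and Il6 at -0.038 to 0.42. Depth limits what can be said of genes near the floor of 0.163 to 0.169 CPM, such as Heyl and Cd34.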

Other observations

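Some cytokine receptor genes called by DESeq2 had lower values in Vitro. They and the genes of the next paragraph were chosen after their values were seen. Csf2ra, the ligand-binding chain of the GM-CSF receptor, was at 3.49, 2.59 and 1.70 CPM in Vitro and 5.74, 4.53 and 6.08 CPM in Con (log2 -1.07 ± 0.30, edgeR adjusted p = 0.23, DESeq2 adjusted p = 0.038). Il3ra, the interleukin 3 receptor chain, was at 7.28, 9.56 and 9.19 CPM in Vitro and 15.5, 17.6 and 19.1 CPM in Con (log2 -1.002 ± 0.26, edgeR adjusted p = 0.22, DESeq2 adjusted p = 0.024). Il4r, the interleukin 4 receptor chain, was at 286, 239 and 291 CPM in Vitro and 427, 446 and 528 CPM in Con (log2 -0.78 ± 0.16, edgeR adjusted p = 0.19, DESeq2 adjusted p = 0.0016). All 3 Vitro libraries were below all Con libraries for each of them.

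Other receptors and channels were higher in all 3 Vitro libraries. Flt1, a VEGF receptor, was at 20.5, 36.4 and 28.5 CPM in Vitro and 7.73, 14.1 and 10.5 CPM in Con (log2 1.40 ± 0.30, edgeR adjusted p = 0.19, DESeq2 adjusted p = 0.0027). Aqp1, a water channel, was at 79.1, 74.9 and 61.5 CPM in Vitro and 39.7, 31.8 and 29.0 CPM in Con (log2 1.10 ± 0.25, edgeR adjusted p = 0.19, DESeq2 adjusted p = 0.0068). Tnfrsf11b, the decoy receptor osteoprotegerin, was at 131, 178 and 206 CPM in Vitro and 91.4, 66.5 and 85.2 CPM in Con (log2 1.08 ± 0.20, edgeR adjusted p = 0.16, DESeq2 adjusted p = 3.2e-04).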
